A study of Homo sapiens with 6 samples.

Results

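Nuclear receptors are transcription factors that bind DNA through zinc fingers, and many of them change their activity when a small lipophilic molecule fits into their ligand pocket. In liver cells the metabolic members act as sensors of oxysterols, bile acids, drugs and other foreign compounds, mostly as heterodimers with a retinoid X receptor, whereas the orphan members have no accepted physiological ligand or are active without one. The genes described here were 10 of the 58735 genes in the table, taken by gene symbol. They were the retinoid X receptors RXRA and RXRB, the liver X receptors (LXR) NR1H3 and NR1H2, the xenobiotic sensors NR1I2 (pregnane X receptor, PXR) and NR1I3 (constitutive androstane receptor, CAR), and the orphan or adopted receptors NR5A2 (liver receptor homolog), ESRRA (estrogen-related receptor alpha), NR2F2 (COUP-TFII) and NR2F6.

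To examine how these genes behaved when calmegin was depleted, messenger RNA levels were compared between Hep-G2 cells whose CLGN transcript was targeted by a short hairpin (sh-CLGN, 3 libraries) and Hep-G2 cells with a control hairpin that has no intended target (sh-NC, 3 libraries). Hep-G2 is an established human liver cancer line. Calmegin, the product of CLGN, is a folding chaperone of the endoplasmic reticulum. The study describes delivery of both hairpins by lentivirus with puromycin selection, so the control cells shared the vector and the drug, and all 6 samples carried the same batch label. Each group held 1 hairpin, and a difference between the hairpins or the cultures cannot be told apart from the loss of CLGN. The labels do not say whether the libraries of a group came from separate cultures, so the p-values below measure the spread between these libraries.

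Expression was given as FPKM, a unit that scales fragments by exon length and library size and therefore lets levels be compared between genes per length. The reads behind the values summed to 14955816 to 16244639 per library. The size by which each library was scaled was not this read total. It was 0.933 to 0.953 of the total in sh-NC and 1.07 to 1.08 of it in sh-CLGN. Compared with scaling by read totals, this raised the sh-NC values and lowered the sh-CLGN values. It enters the FPKM comparisons between groups below, apart from ratios and shares within a library. Its cause was not tested. CLGN itself was expressed at 24.1, 21.0 and 26.1 FPKM for the control libraries and at 9.48, 8.88 and 8.60 FPKM for the sh-CLGN libraries, which left 37.8% of the control mean. Of 11 hepatocyte markers, all were expressed in every library, with a summed level of 7428 to 7635 FPKM in sh-NC and 7629 to 8103 FPKM in sh-CLGN. Fibroblast markers moved with the group: of 9, 5 entered the test given below and all 5 rose, where 26.7% of all tested genes did. The summed level of the 9 was 7.17 to 8.51 FPKM in sh-NC and 48.5 to 49.9 FPKM in sh-CLGN. COL1A2 stood at 3.86 to 4.85 FPKM in sh-NC and 38.3 to 39.4 FPKM in sh-CLGN. COL1A2, COL1A1, COL3A1 and LUM passed both thresholds given below, at 9.21, 10.1, 6.3 and 5.74 times the control mean, PDGFRB rose too, and DCN, FAP and THY1 had at most 1 read in any library. COL1A1, COL3A1 and LUM were tested only because sh-CLGN reached the filter given below, and LUM had 5 to 20 reads in sh-NC. The part of these markers in the results below was not tested. Endothelial markers summed to 3.36 to 3.67 FPKM in sh-NC and 2.38 to 2.65 FPKM in sh-CLGN, mostly PECAM1, which was lower (limma adjusted p = 0.00778), with KDR at 0. Blood cell markers summed to 1.203 to 1.53 FPKM and 0.512 to 0.821 FPKM in the same order, mostly CD14, which was lower (limma adjusted p = 0.00121), with PTPRC at no more than 4 reads. CD14 was tested only because sh-NC reached the filter. In bulk RNA, fewer cells of a type and less RNA per cell cannot be told apart.

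A fold change is given as the log2 difference of FPKM + 1, sh-CLGN minus sh-NC, and it understates the change of genes at low levels. It was tested with limma over the 13074 genes that reached 1 FPKM in at least 3 libraries, with Benjamini-Hochberg adjustment over all of them, and a gene passed at an adjusted p of at most 0.05. All 10 receptors were tested. Of these, 1 was higher (NR1I2) and 6 were lower (NR2F6, ESRRA, NR2F2, NR1I3, NR1H3 and NR1H2) in sh-CLGN, and RXRA, RXRB and NR5A2 did not pass. Among all tested genes 65.8% passed, 26.7% higher and 39.0% lower, so 7 of 10 is a share near the background. None of the receptors also reached an absolute log2 fold change of 1, which 6.28% of all tested genes did. Libraries of both groups did not overlap for 7 of the 10 receptors, against 70.2% of all tested genes. The split depended on the setting: 1 receptor was higher and 3 lower with TPM scaling, 2 and 3 by read totals, 2 and 4 after quantile normalization, and 3 and 3 after removal of the trend with GC content. The median log2 fold change was -0.25 over the receptors and -0.08 over all tested genes.

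**Figure D1:**
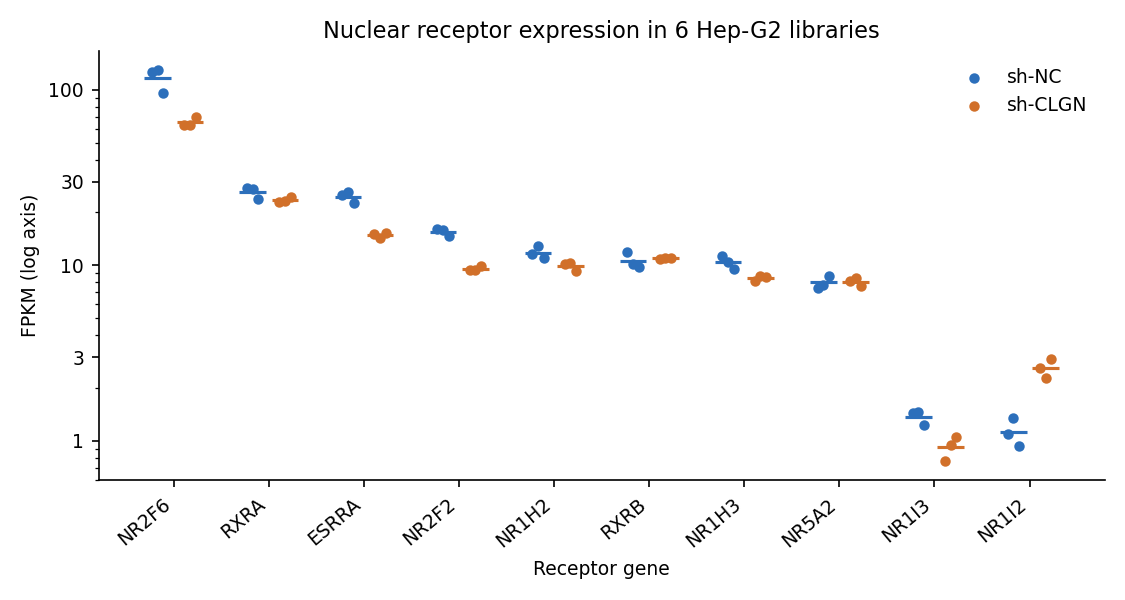
FPKM of the 10 receptor genes on a log axis, with a point for each of the 3 sh-NC (blue) and 3 sh-CLGN (orange) libraries and a bar at each group mean. NR2F6 was the most abundant in both groups, at group means of 117 and 65.3 FPKM, and NR1I2 and NR1I3 stood lowest.

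The levels spanned a wide range. In sh-NC the order of mean FPKM was NR2F6 (117), RXRA (26.2), ESRRA (24.7), NR2F2 (15.5), NR1H2 (11.8), RXRB (10.6), NR1H3 (10.4), NR5A2 (7.98), NR1I3 (1.37) and NR1I2 (1.13). Neighbours whose libraries overlapped in sh-NC were RXRA and ESRRA, NR1H2 and RXRB, RXRB and NR1H3, and NR1I3 and NR1I2. In sh-CLGN the order became NR2F6 (65.3), RXRA (23.6), ESRRA (14.9), RXRB (10.9), NR1H2 (9.95), NR2F2 (9.58), NR1H3 (8.48), NR5A2 (8.07), NR1I2 (2.61) and NR1I3 (0.919), and the only neighbours that overlapped were NR1H2 with NR2F2 and NR1H3 with NR5A2. By group means NR2F2 thus stood above NR1H2 and RXRB in the controls and below both in sh-CLGN. In sh-CLGN its libraries were apart from those of RXRB but overlapped with those of NR1H2. ESRRA no longer overlapped with RXRA. The FPKM of the 10 receptors summed to 227 ± 24.7 over the sh-NC libraries and to 154 ± 4.63 over the sh-CLGN libraries (SD, n = 3), or 68.0% of the control. The scaling difference between the groups given above is part of this summed level. NR2F6 made up 51.5% ± 2.59 of that sum with the control hairpin and 42.3% ± 1.12 with sh-CLGN, so much of the summed difference was this gene. RXRA took 11.6% ± 0.378 and 15.3% ± 0.0461 of it.

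The xenobiotic sensors moved in opposite directions, although the fall of NR1I3 was lost in many alternative settings. NR1I2 encodes PXR, which binds many drugs and bile acids and drives detoxification genes (ENSG00000144852, chromosome 3, 119780484 to 119818485, plus strand, GRCh38 as for all positions below). Its level was 1.09, 1.35 and 0.937 FPKM in sh-NC and 2.61, 2.29 and 2.94 FPKM in sh-CLGN, where values here and below are in the order of replicates 1, 2 and 3, and it rested on 78 to 255 reads per library. All sh-CLGN libraries lay above all sh-NC libraries, and the mean was 2.32 times the control. On the log2(FPKM + 1) scale the difference was 0.76 (SE 0.106, limma adjusted p = 0.000405), higher than 93.7% of all tested genes. The pseudocount bears on this low gene: with 0.1 in place of 1 the log2 difference was 1.15, and in TPM units it was 1.15 as well, past an absolute log2 fold change of 1. NR1I2 passed in all 18 alternative settings, with log2 differences from 0.64 to 1.22.

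NR1I3 encodes CAR, which shares many target genes with PXR and moves to the nucleus when activated (ENSG00000143257, chromosome 1, 161229666 to 161238302, minus strand). It was measured at 1.43, 1.45 and 1.23 FPKM in sh-NC and 0.767, 0.941 and 1.05 FPKM in sh-CLGN, from 43 to 70 reads per library. The groups did not overlap, and the gene stayed in the test through all 3 sh-NC libraries and 1 sh-CLGN library. The log2 difference was -0.31 (SE 0.0972, limma adjusted p = 0.0236), and sh-CLGN held 67.0% of the control mean. The call was lost without sh-NC replicate 1 or 2 or without sh-CLGN replicate 1 or 2 (adjusted p = 0.0677, 0.0703, 0.0812 and 0.0549), and with the replicate block (adjusted p = 0.056). It was also lost without the filter, in TPM units, by read totals and after removal of the GC trend (adjusted p between 0.0711 and 0.366). Exons of NR1I3 share 661 bases, 20% of its exonic length, with TOMM40L on the opposite strand. TOMM40L, a mitochondrial import protein, had 520 to 655 reads in sh-NC and 386 to 414 reads in sh-CLGN, and since the strand setting of the counting was not given in the sources used here, reads of the shared bases cannot be assigned.

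Within each library the ratio of NR1I2 to NR1I3 was 0.763, 0.930 and 0.760 for sh-NC and 3.40, 2.43 and 2.80 in sh-CLGN. By FPKM, NR1I3 thus stood above NR1I2 in every control library and below it in every sh-CLGN library. The order in the controls is not firm, as the 0.930 of sh-NC replicate 2 rested on 106 reads of NR1I2 and 70 of NR1I3. Reads of the bases shared with TOMM40L bear on it too. The ratio changed 3.5-fold between the geometric means (exact two-sided permutation test, p = 0.1, adjusted p = 0.2 over the 4 pairs compared), and 0.1 is the smallest p that 3 against 3 libraries allow. Leaving out any library kept the log2 difference of the ratio between 1.68 and 1.92.

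The start sites of the sensor pair are shown with that of ESRRA, which starts in sequence of another composition. A relation between this composition and the changes was not tested. The windows run from 250 bases before to 50 bases after the start, 5′ to 3′ (RefSeq, GRCh38.p14), with each CG dinucleotide in capitals; the first listed window of NR1I2 is given.
NR1I2 (chr3:119781851-119782150, plus strand): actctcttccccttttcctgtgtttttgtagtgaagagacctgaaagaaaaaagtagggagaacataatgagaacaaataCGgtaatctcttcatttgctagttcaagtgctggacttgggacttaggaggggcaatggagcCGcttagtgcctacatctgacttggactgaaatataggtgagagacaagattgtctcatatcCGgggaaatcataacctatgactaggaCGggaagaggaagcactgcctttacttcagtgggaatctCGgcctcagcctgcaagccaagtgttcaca
NR1I3 (chr1:161238154-161238453, minus strand): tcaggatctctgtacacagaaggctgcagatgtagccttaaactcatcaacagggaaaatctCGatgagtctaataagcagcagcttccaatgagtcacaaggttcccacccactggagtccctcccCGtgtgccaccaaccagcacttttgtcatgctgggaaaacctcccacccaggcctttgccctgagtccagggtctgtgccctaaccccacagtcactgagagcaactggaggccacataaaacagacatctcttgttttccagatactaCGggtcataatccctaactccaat
ESRRA (chr11:64305274-64305573, plus strand): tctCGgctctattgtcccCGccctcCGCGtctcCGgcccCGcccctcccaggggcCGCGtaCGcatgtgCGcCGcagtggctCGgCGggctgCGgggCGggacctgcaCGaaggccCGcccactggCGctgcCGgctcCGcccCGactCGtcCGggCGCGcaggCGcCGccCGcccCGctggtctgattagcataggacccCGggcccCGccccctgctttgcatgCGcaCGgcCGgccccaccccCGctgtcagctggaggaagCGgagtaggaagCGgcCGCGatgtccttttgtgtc
The NR1I2 window held 5 CG dinucleotides at 45.3% GC, the NR1I3 window 3 at 50.7% GC and the ESRRA window 39 at 75% GC, where the median of 35116 windows of this length was 14 CG and 58.7% GC. Windows were found for 9 of the 10 receptors, all but NR2F6. The letters AGGTCA, the core hexamer that many of these receptors bind, were searched on both strands and occurred in 1 of the NR5A2 windows and 1 of the NR1H3 windows, while 13.8% of all windows held them. The 3 windows printed held none, which says only that these letters are not within them.

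**Figure D2:**
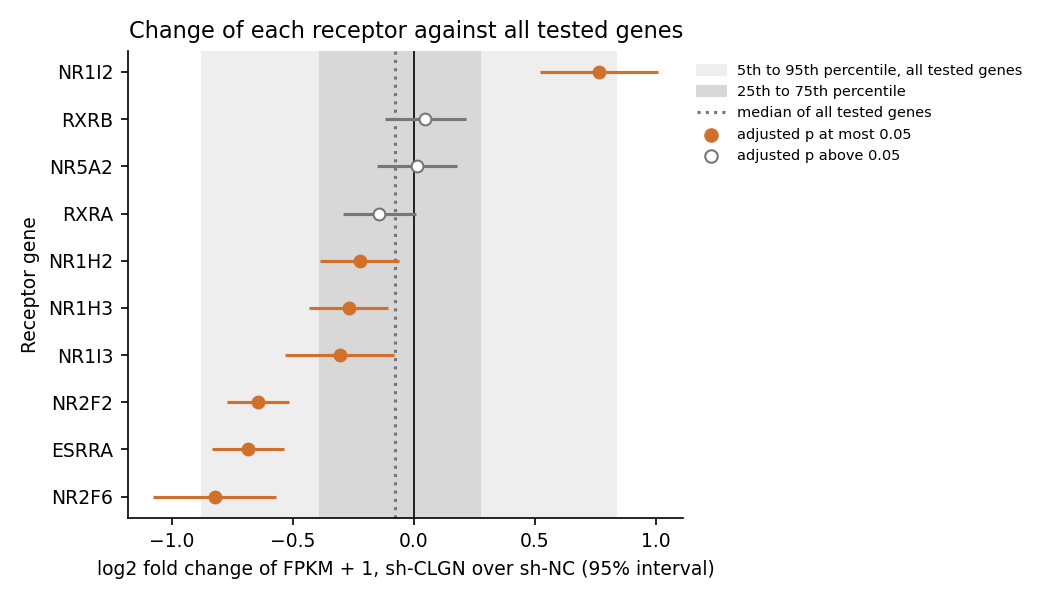
The log2 fold change of FPKM + 1 (sh-CLGN over sh-NC) for each receptor with its 95% interval, filled where the adjusted p was at most 0.05, over grey bands for the distribution of all 13074 tested genes. NR1I2 stood at 0.76, NR2F2, ESRRA and NR2F6 between -0.65 and -0.82 outside the band from the 25th to the 75th percentile, and the others inside it.

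NR2F6, ESRRA and NR2F2 showed the largest decreases among the receptors. NR2F6 encodes an orphan receptor of the COUP-TF family (ENSG00000160113, chromosome 19, 17231883 to 17245940, minus strand). It was expressed at 126, 129 and 96.2 FPKM in sh-NC and 63.1, 63.2 and 69.6 FPKM in sh-CLGN, from 2773 to 5053 reads per library. The sh-NC libraries were all above the sh-CLGN libraries, with replicate 3 the lowest of the controls. Mean expression was 117 ± 18.2 FPKM with the control hairpin and 65.3 ± 3.72 FPKM with sh-CLGN (SD, n = 3), a log2 difference of -0.82 (SE 0.109, limma adjusted p = 0.000331). Without sh-NC replicate 3 it was -0.96.

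NR2F2 encodes COUP-TFII, a relative of NR2F6 that acts mainly as a repressor and works in vessel and organ development (ENSG00000185551, chromosome 15, 96325938 to 96340263, plus strand). Its values were 16.1, 15.8 and 14.7 FPKM in sh-NC and 9.42, 9.40 and 9.92 FPKM in sh-CLGN, from 995 to 1493 reads per library. The groups lay far apart relative to the spread within them. The mean fell to 61.6% of the control, with a log2 difference of -0.65 (SE 0.0554, limma adjusted p = 3.65e-05). The ratio of NR2F2 to NR2F6 was 0.128, 0.122 and 0.153 for sh-NC and 0.149, 0.149 and 0.142 in sh-CLGN, and the groups overlapped (difference of log2 ratios 0.13, exact two-sided permutation p = 0.4, adjusted p = 0.533).

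ESRRA encodes a constitutively active receptor that works with PGC-1 coactivators on mitochondrial and oxidative genes (ENSG00000173153, chromosome 11, 64305572 to 64316743, plus strand). Its values were 25.3, 26.1 and 22.6 FPKM in sh-NC and 15.1, 14.3 and 15.4 FPKM in sh-CLGN, from 711 to 1153 reads per library. Every sh-CLGN library lay below every sh-NC library, and 60.6% of the control mean was left. The log2 difference was -0.69 (SE 0.0643, limma adjusted p = 5.54e-05). ESRRA shares 284 exonic bases with TRMT112 on the opposite strand, a gene with 1498 to 1799 reads in sh-NC and 1486 to 1625 reads in sh-CLGN. NR2F6, NR2F2, ESRRA and NR1I2 were also the 4 receptors that passed when the test was set against a fold change of 1.2 (limma treat, adjusted p between 0.000618 and 0.00404). All 4 passed in each of the 18 alternative settings.

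The liver X receptors, which bind oxysterols and switch on cholesterol efflux and lipid synthesis genes, differed by less. NR1H3 encodes LXR alpha (ENSG00000025434, chromosome 11, 47248300 to 47269032, plus strand) and was measured at 11.4, 10.4 and 9.50 FPKM in sh-NC and 8.17, 8.71 and 8.55 FPKM in sh-CLGN. NR1H2 encodes LXR beta (ENSG00000131408, chromosome 19, 50329653 to 50382982, plus strand) and was measured at 11.6, 12.8 and 10.9 FPKM in sh-NC and 10.2, 10.4 and 9.29 FPKM in sh-CLGN. In neither gene did the groups overlap. NR1H3 shares 189 exonic bases with ACP2 on the opposite strand, a gene with 882 to 956 reads in sh-NC and 732 to 837 reads in sh-CLGN. The log2 difference was -0.27 for NR1H3 (SE 0.0700, limma adjusted p = 0.0101). For NR1H2 it was -0.22 (SE 0.0710, limma adjusted p = 0.0237), and this call was lost without sh-NC replicate 2 (adjusted p = 0.0743) or without sh-CLGN replicate 3 (adjusted p = 0.0824).

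Both LXR values depended on how the libraries were scaled. Scaling by read totals, in place of the sizes behind the FPKM values, shifted the median of all tested genes by 0.16. The log2 differences became -0.09 for NR1H3 and -0.04 for NR1H2, and neither passed. Neither passed in TPM units or after quantile normalization. Relative to the median of all tested genes they were -0.19 and -0.15 as deposited and -0.18 and -0.13 by read totals. After removal of the trend with GC content they were -0.04 and 0.04, so the sign for NR1H2 turned. The ratio of NR1H3 to NR1H2 was 0.977, 0.815 and 0.868 for sh-NC and 0.801, 0.841 and 0.921 in sh-CLGN, and the groups overlapped (exact two-sided permutation p = 0.6, adjusted p = 0.6).

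**Figure D3:**
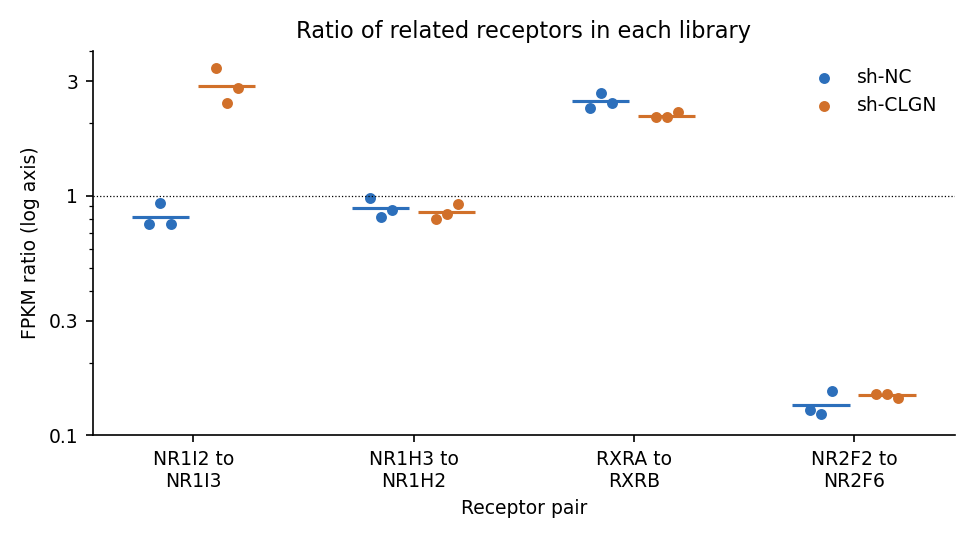
FPKM ratio within 4 receptor pairs on a log axis, with a point for each of the 3 sh-NC (blue) and 3 sh-CLGN (orange) libraries and a bar at the geometric mean. The ratio of NR1I2 to NR1I3 crossed 1 between the groups, the ratio of RXRA to RXRB was lower in sh-CLGN without overlap, and the other pairs overlapped.

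The retinoid X receptors, the dimer partners of LXR, PXR and CAR, did not pass the test. RXRA (ENSG00000186350, chromosome 9, 134317098 to 134440585, plus strand) was measured at 27.5, 27.2 and 23.8 FPKM in sh-NC and 23.0, 23.2 and 24.4 FPKM in sh-CLGN, from 4073 to 4406 reads per library. Replicate 3 of sh-NC lay within the sh-CLGN range. The log2 difference was -0.14 (95% interval -0.29 to 0.01, limma adjusted p = 0.0874), and without sh-NC replicate 3 it was -0.21 and passed (limma adjusted p = 0.00591). With voom on the recovered reads it also passed as lower (-0.15, adjusted p = 0.0447). It was 0.12 both after quantile normalization and after removal of the GC trend, and passed as higher in the latter (limma adjusted p = 0.012), so no direction can be given for RXRA.

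RXRB (ENSG00000204231, chromosome 6, 33193588 to 33200688, minus strand) was measured at 11.8, 10.1 and 9.76 FPKM in sh-NC and 10.9, 11.0 and 10.9 FPKM in sh-CLGN. It shares 244 exonic bases with SLC39A7 on the opposite strand, a gene with 3463 to 3546 reads in sh-NC and 2675 to 2859 reads in sh-CLGN, against 580 to 724 reads for RXRB. The sh-CLGN libraries lay inside the control range. The log2 difference was 0.05 (95% interval -0.12 to 0.22, limma adjusted p = 0.583), and it passed as higher by read totals, after quantile normalization and after removal of the GC trend, at 0.23, 0.19 and 0.29 (limma adjusted p = 0.0199, 0.0412 and 0.00257). The ratio of RXRA to RXRB, which does not depend on the scaling of a library, was 2.32, 2.69 and 2.43 for sh-NC and 2.12, 2.12 and 2.23 in sh-CLGN. The groups did not overlap, and the ratio in sh-CLGN was 0.870 of that in sh-NC (exact two-sided permutation p = 0.1, adjusted p = 0.2). RXRG, the remaining retinoid X receptor, had no read in any library.

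NR5A2 encodes a receptor that controls bile acid and cholesterol genes in liver (ENSG00000116833, chromosome 1, 200027602 to 200177424, plus strand). It was measured at 7.45, 7.77 and 8.73 FPKM in sh-NC and 8.15, 8.47 and 7.59 FPKM in sh-CLGN, from 786 to 1050 reads per library. The groups overlapped fully. The log2 difference was 0.02 with a 95% interval of -0.15 to 0.18 (limma adjusted p = 0.862), and it passed in none of the 18 alternative settings.

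**Figure D4:**
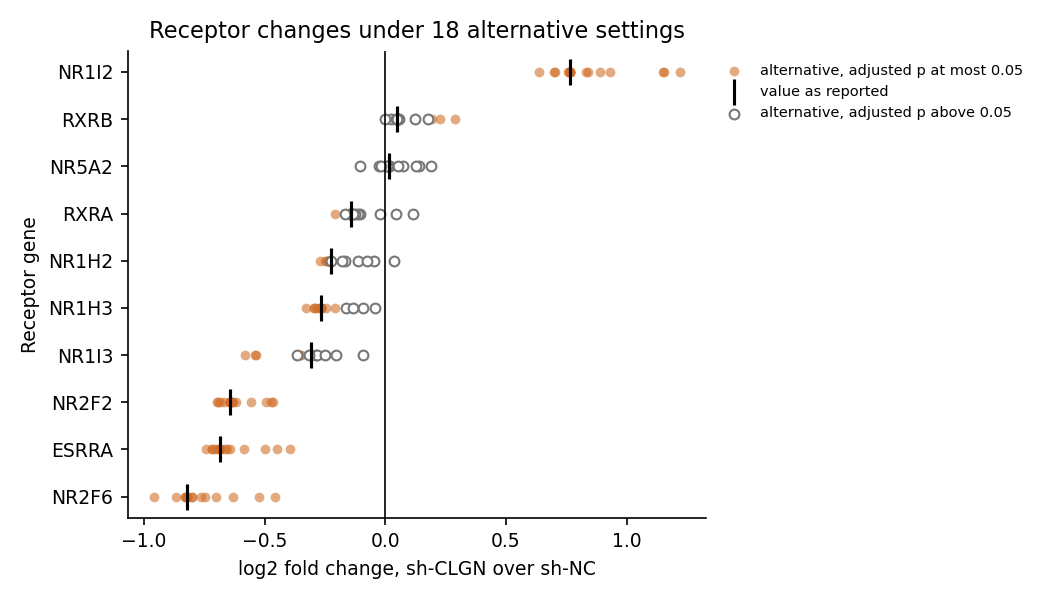
The log2 difference (sh-CLGN over sh-NC) of each receptor as reported (black mark) and under 18 alternative settings, filled where the adjusted p was at most 0.05. NR1I2 stayed between 0.64 and 1.22 and NR2F6 between -0.96 and -0.46, and RXRA lay on both sides of 0.

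GC content moved with the fold changes in these libraries. Across 13068 tested genes, which all come from the same 6 libraries, the GC content of the transcript and the log2 fold change had a Spearman rho of -0.32 (a description, as genes are not replicates). The median GC content of tested genes was 48.1%, and that of NR2F6 was 71.1%, of ESRRA 63.2%, of NR2F2 49.8% and of NR1I2 50.5%. After the trend was removed the log2 differences were -0.46, -0.40, -0.49 and 0.93 in that order, and all of these passed.

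The rest of the nuclear receptor family was described from a list of 38 genes. Of these, 21 were tested: 6 rose, 10 fell and 5 did not pass, with a median log2 fold change of -0.18. The share that passed was 76.2%, where it was 65.8% over all tested genes. NR6A1, an orphan receptor of germ cells and early embryos, fell from 13.3 to 13.7 FPKM in sh-NC to 4.45 to 5.46 FPKM in sh-CLGN (log2 difference -1.33, limma adjusted p = 5.88e-06). NR0B2, the small heterodimer partner that represses NR5A2, was measured at 32.6, 32.2 and 27.4 FPKM in sh-NC and 14.7, 11.1 and 9.54 FPKM in sh-CLGN (log2 difference -1.33, limma adjusted p = 9.9e-05). NR1D2, a repressor of the circadian clock, rose from 3.19 to 3.35 FPKM in sh-NC to 7.0 to 7.91 FPKM in sh-CLGN (log2 difference 1.00, limma adjusted p = 9.99e-06). These were the members of that list past both thresholds. PPARG, a regulator of fat storage, fell by 0.52 and THRB, a thyroid hormone receptor, rose by 0.61 on the log2 scale. NR2F1, a close relative of NR2F2 named here after its values were seen, was measured at 13.7, 13.8 and 11.1 FPKM in sh-NC and between 19.99 and 20.2 FPKM in sh-CLGN (log2 difference 0.62, limma adjusted p = 0.000276), opposite in direction to NR2F2 and NR2F6. Of the 17 receptors not tested, 6 had no more than 3 reads in any library.

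Textbook targets and cofactors of the receptors were listed to set the receptor levels beside them. Among 16 LXR target genes 12 were tested, 5 were higher and 5 lower, with a median of 0.12. Of the 12, 83.3% passed, where 65.8% of all tested genes did. SCD, the desaturase that makes monounsaturated fatty acids, was measured at 347, 375 and 367 FPKM in sh-NC and 76.2, 79.7 and 80.1 FPKM in sh-CLGN (log2 difference -2.19, limma adjusted p = 3.01e-07). SREBF1, the regulator of fatty acid synthesis, went from 28.9 to 37.6 FPKM in sh-NC to 11.2 to 12.8 FPKM in sh-CLGN (log2 difference -1.43, limma adjusted p = 1.3e-05). LPCAT3, a phospholipid remodelling enzyme, fell by 0.78 on the log2 scale, while APOE, a lipoprotein component, rose by 0.57. ABCG8, a sterol transporter, rose by 0.87 from 0.451 to 0.493 FPKM in sh-NC to 1.59 to 1.76 FPKM in sh-CLGN, and was tested only because sh-CLGN reached the filter.

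Among 20 PXR and CAR target genes 11 were tested, 3 were higher and 4 lower, with a median of -0.06. Of the 11, 63.6% passed, near the 65.8% of all tested genes. CYP2B6, the classical CAR target among the drug-metabolizing cytochromes, was measured at 2.91, 2.91 and 2.88 FPKM in sh-NC and 0.705, 0.405 and 0.494 FPKM in sh-CLGN (log2 difference -1.35, limma adjusted p = 1.45e-05), and passed the filter only through sh-NC. GADD45B, a stress-response gene, and ALAS1, the first enzyme of haem synthesis, fell by 0.89 and 0.54 on the log2 scale. SULT2A1, a sulfotransferase, and ABCC2, an export pump, rose by 0.68 and 0.52. CYP3A4, the classical PXR target, named here after its values were seen, had 0 to 6 reads per library and was not tested, so its level could not be compared at this depth.

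Of 13 NR5A2 target genes 7 were tested, 1 was higher (ABCG8, through the filter in sh-CLGN alone) and 5 lower, with a median of -0.62, where 26.7% and 39.0% of all tested genes were higher and lower. CCNE1, a cyclin of the entry into S phase, was measured at 10.8, 10.05 and 11.7 FPKM in sh-NC and 4.30, 4.90 and 4.03 FPKM in sh-CLGN (log2 difference -1.13, limma adjusted p = 1.48e-05). NR0B2 and ABCG8, given above, are also on this list. APOM, an apolipoprotein, fell by 0.79 and SCARB1, the receptor for high-density lipoprotein, by 0.62 on the log2 scale, while the level of NR5A2 itself overlapped between the groups.

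Of 14 ESRRA target genes 13 were tested, 2 were higher and 8 lower, with a median of -0.23; 76.9% passed, where 65.8% of all tested genes did. ATP5F1B, a subunit of ATP synthase, was measured at 568, 564 and 551 FPKM in sh-NC and 324, 323 and 304 FPKM in sh-CLGN (log2 difference -0.82, limma adjusted p = 6.64e-06). VEGFA, an angiogenic factor, fell by 0.88 on the log2 scale. SPP1, the secreted protein osteopontin, rose from 1.24 to 2.14 FPKM in sh-NC to 4.78 to 5.98 FPKM in sh-CLGN (log2 difference 1.30, limma adjusted p = 9.96e-05). PDK4, which restrains pyruvate oxidation, rose by 0.87 and passed the filter only through sh-CLGN. The split of this list depended on scaling: by read totals 3 were higher and 4 lower, and after quantile normalization 4 were higher and 5 lower.

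Of 21 receptor coregulators 20 were tested, 5 were higher and 9 lower, with a median of -0.15. A share of 70.0% passed, near the 65.8% of all tested genes. HDAC3, a histone deacetylase that acts in corepressor complexes, went from 14.01 to 15.5 FPKM in sh-NC to 6.82 to 6.93 FPKM in sh-CLGN (log2 difference -1.01, limma adjusted p = 5.2e-06). TBL1XR1, an exchange factor for corepressors, went the other way, from 4.82 to 5.87 FPKM in sh-NC to 11.7 to 12.7 FPKM in sh-CLGN (log2 difference 1.06, limma adjusted p = 1.26e-05). The coactivators CARM1 and NCOA4 fell by 0.71 and 0.63 on the log2 scale. The named coregulators therefore differed in direction.

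**Figure D5:**
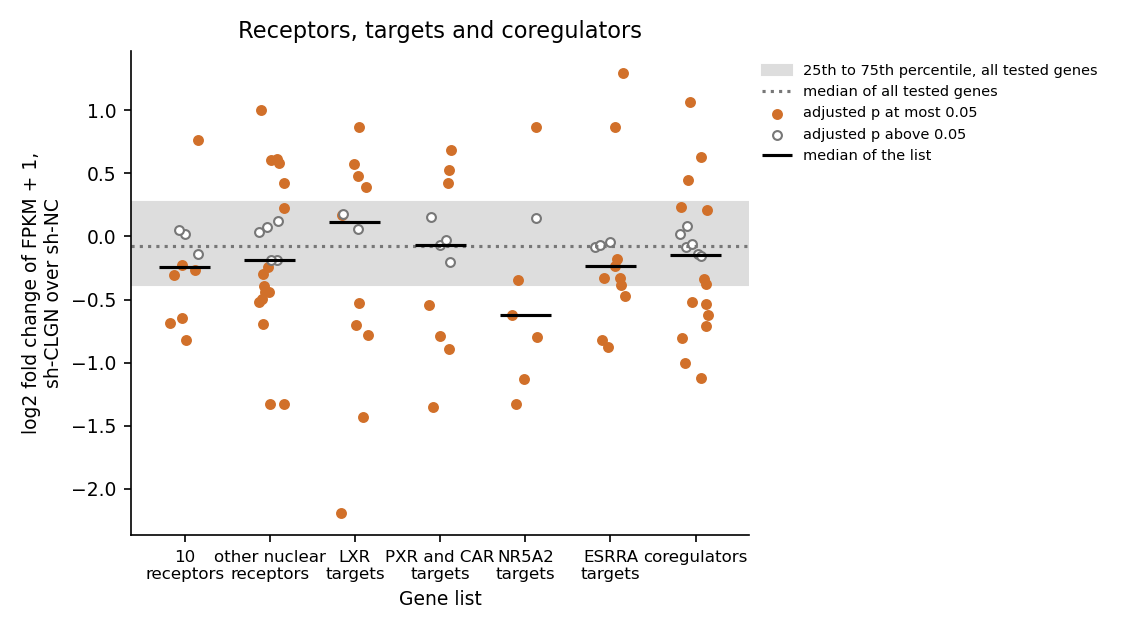
The log2 fold change of FPKM + 1 (sh-CLGN over sh-NC) of every tested gene in the 10 receptors and in each list, filled where the adjusted p was at most 0.05, with a bar at the list median and a grey band from the 25th to the 75th percentile of all tested genes. Medians ran from -0.62 for the NR5A2 targets to 0.12 for the LXR targets, and each list held genes on both sides of 0.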

How the data were processed

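The labels give 6 Hep-G2 libraries (3 sh-NC, 3 sh-CLGN) made with NEBNext Ultra reagents. The submitters' processing notes name HISAT2 2.0.5, featureCounts and GRCh38. The authors deposited 1 table of FPKM values for 58735 genes, whose positions all equalled GENCODE 29. FPKM times gene length gave whole reads for 100% of values within 0.01 of a read, and 1 read on 1 kb was worth 0.0589 to 0.0717 FPKM. KD in the column names was read as sh-CLGN, after the series' design.

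The main fit was limma 3.58.1 (R 4.3.3, eBayes with trend) on log2(FPKM + 1), without a covariate, for genes that reached 1 FPKM in 3 or more libraries. P-values are two-sided. Receptor pairs were compared by the exact permutation test on log2 FPKM ratios. GC content was that of the longest GENCODE 29 transcript, its trend removed with a lowess span of 0.3. Reads of paralogs, overlapping or antisense genes may be split between them. Alternatives changed the pseudocount, the filter, the scaling, the variance model, the genes tested and the libraries, or used voom on the reads. The fit was also run on simulated reads in which few genes changed. These had neither the scaling difference between the groups nor the GC trend, so the run does not cover either. Ratios, sequences and figures used Python 3.11.15 (matplotlib 3.10.9, scipy 1.17.1, pandas 2.3.3, numpy 2.4.6).

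Named genes are the 10 receptors, CLGN, for each list up to 5 tested genes of smallest adjusted p, and list members past both thresholds. Some genes that meet this rule are not reported here. The members, the lists and the tests were chosen with earlier results of these data known. Replicate numbers were not treated as pairs, since the correlations of same-numbered deviations were -0.02, -0.05 and -0.15.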

Additional observations from a re-analysis of the deposited data

How the results depend on the processing

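The reads per library and 3 libraries a group limit what can be seen at low levels, and NR1I3 had 43 to 70 reads. Of the 10 receptors 7 passed at an adjusted p of at most 0.05 as reported, 4 with TPM scaling, 5 with no filter, 5 by read totals and 6 with the replicate block, which took away the NR1I3 call alone among the receptors. TPM scaling and read totals moved the median of all tested genes by 0.11 and 0.16 on the log2 scale. Without the filter the log2 differences of the receptors stayed the same. There 33474 genes were tested in place of 13074, and their median differed by 0.11. Leaving out each library in turn gave 5 to 8 receptors. No receptor passed both thresholds as reported and in every leave-one-out fit, 1 did (NR1I2) with a pseudocount of 0.1, with TPM scaling and with voom on the recovered reads, and 4 passed a test against a fold change of 1.2. Of 180 receptor values under the 18 alternatives, 147 kept their direction and their side of the threshold, 20 lost and 6 gained a call, and 9 had the other sign. RXRA and NR1H2 after removal of the GC trend counted both as a changed call and as a changed sign. After removal of the GC trend the sign turned for RXRA (0.12), NR1H2 (0.037) and NR5A2 (-0.10). The log2 difference of the NR1H3 to NR1H2 ratio was -0.05 and lay between -0.11 and 0.02 when each library was left out, turning to 0.020 without sh-NC replicate 1. The other 3 pair ratios kept their direction. Counts of passing genes in the 6 lists stayed within 1.5 times of those reported, but their splits by direction moved with the setting. Scaling by read totals left 7 LXR targets higher and 5 lower, and 5 PXR and CAR targets higher and 4 lower. It left 7 other nuclear receptors higher and 8 lower, and 2 NR5A2 targets higher and 5 lower. After quantile normalization 9 coregulators were higher and 10 lower. For calls that changed, the cause was not tested.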
